A study of Mus musculus with 11 samples.

Results

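A set of 8 genes of the otic and other cranial placodes was followed in the brains of mouse embryos: Oc90, Pax8, Dlx5, Dlx6, Six4, Eya1, Eya2 and Gata3. They were taken by symbol, through their Entrez gene identifiers, from 27179 counted genes, and all 8 were found. The rule that picks them is the list of symbols and uses no measured value, although the list was written with earlier results of these data known. RNA with poly(A) tails was sequenced from 11 C57BL/6 embryos at embryonic day 9.5, 1 library per embryo. The tissue was the brain down to a cut immediately caudal to the otic vesicle, the closed epithelial sac that becomes the inner ear, so the content of the dissected piece and the level of these genes within it are measured together. Mice carried mutations in the tumour suppressor p53 and in Bim, which promotes cell death. The 4 affected females and the 4 control males were p53-/- Bim+/-. The 3 control females were p53+/+ Bim+/-. All 11 embryos therefore lacked 1 functional copy of Bim. The labels do not define an affected female further. Affected females and control females differed in p53 genotype as well as in being affected. Affected females and control males differed in sex as well as in being affected. Control males and control females differed in both p53 genotype and sex. No pair of groups therefore separates these factors.

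Placodes are thickened patches of head ectoderm that give rise to sense organs and to neurons of the cranial ganglia. They arise from a common band at the border of the neural plate, in which homeobox factors of the sine oculis family, such as Six4, act together with Eya proteins, which are coactivators and also phosphatases. Pax8 and its relative Pax2 act in the part of that band that forms the ear, under the influence of FGF signals, and Dlx5, Dlx6 and Gata3 then pattern the otic vesicle. Most of these genes are active elsewhere in the embryonic head too: Pax8 at the boundary of midbrain and hindbrain, Dlx5 and Dlx6 in the pharyngeal arches and the anterior neural ridge, and Six4 and the Eya genes in head mesenchyme and muscle precursors.

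Dlx5 and Dlx6 are neighbours on chromosome 6 and close paralogues, so the most alike stretch of their coding sequences bears on whether reads of the 2 genes can be told apart. The stretch covers bases 402 to 581 of the 867 coding bases of Dlx5 and bases 504 to 683 of the 891 of Dlx6, from the GENCODE transcripts, and lies in the part that encodes the DNA-binding homeodomain. Capitals mark the bases that differ.
Dlx5: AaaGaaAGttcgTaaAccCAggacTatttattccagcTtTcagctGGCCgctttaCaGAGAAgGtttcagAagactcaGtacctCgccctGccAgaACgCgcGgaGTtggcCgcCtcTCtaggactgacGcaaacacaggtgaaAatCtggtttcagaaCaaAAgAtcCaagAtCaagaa
Dlx6: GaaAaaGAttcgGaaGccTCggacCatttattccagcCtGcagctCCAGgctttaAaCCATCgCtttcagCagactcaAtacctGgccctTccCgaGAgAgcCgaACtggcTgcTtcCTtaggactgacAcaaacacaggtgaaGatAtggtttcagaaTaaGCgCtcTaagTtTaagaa
The stretches were identical at 133 of 180 bases, or 73.9%, and differed at 47. The longest exact run of bases that the 2 coding sequences shared was 14 bases long.

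Each library held 8211942 to 11218682 counts. Levels are CPM, that is, reads of a gene scaled to a common library size, after TMM correction for differences in composition between libraries. Genes were tested with edgeR's quasi-likelihood F-test, with Benjamini-Hochberg adjustment of p across the 14542 genes that passed a filter on low counts. All 8 genes passed that filter. A gene is said to have risen or fallen only where its adjusted p was under 0.05. The labels call the replicates separate embryos and give no litter or batch. Control female 1 was unlike the others of its group: it differed from control females 2 and 3 by a chi-square of 18.1 and 21.3 per degree of freedom over genes, where those 2 differed from each other by 2.73. Control male 4 differed from the other control males by 14.3 to 31.6, where those differed among themselves by 6.77 to 11.6. Ccng1, a target of p53, was at 21.8 to 33.5 CPM in p53-/- embryos and at 74.7 to 93.8 CPM in p53+/+ embryos, and Y-linked Ddx3y was at 83.4 to 115 CPM in males and at most 0.212 CPM in females, so both label checks held.

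Of a list of 13 otic vesicle genes, 8 passed the low-count filter, and the list summed to 230 to 296 CPM across the 11 embryos. Like the other lists here, it was chosen with earlier results of these data known. The list holds genes that other tissues of the head express too, such as the Notch ligand gene Jag1, at group means of 101 to 148 CPM. A further 4 of its members, singled out after their low values were seen, were near 0. Otol1, which encodes an otolith protein, had no count in any embryo. The otic homeobox genes Hmx2 and Hmx3 reached at most 0.499 and 0.746 CPM, and Fbxo2, which is abundant in the otic epithelium, at most 0.514 CPM. By contrast, the neural genes Sox2 and Otx2 were at 99.3 to 169 and 116 to 147 CPM. How much of the RNA of the 8 genes came from the otic vesicle was not tested.

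Per kilobase of counted gene length, the only scale on which genes can be compared with each other, the Eya coactivator Eya1 was highest, with a mean of 13.1 CPM per kb (SD 1.23, n = 11 embryos). Eya2 followed with 6.55, the transcription factors Six4 with 6.41, Pax8 with 4.93, Dlx5 with 3.46, Dlx6 with 2.83 and Gata3 with 1.22, and Oc90, which encodes the main protein of the otoconia, with 1.10 CPM per kb. Only Eya1 and Eya2 were neighbours in this order whose ranges over embryos did not overlap. Eya2 exceeded Six4 in 4 of 11 embryos and Gata3 exceeded Oc90 in 7 of 11, so these neighbours had no fixed order, whereas Dlx6 exceeded Gata3 in 11 of 11.

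The set did not hold the most abundant member of the Eya family. Eya3 was at a mean of 26.0 CPM per kb (range 21.4 to 33.0). Six4 lay near Six3, Six2 and Six5, at means of 7.60, 5.80 and 5.61 CPM per kb. Among the Dlx genes and this Pax subfamily the set held the highest members: Dlx5 and Dlx6 lay above Dlx3, Dlx2, Dlx1 and Dlx4, at means of 1.70, 1.52, 0.913 and 0.112, and Pax8 lay above Pax5 and Pax2, at 3.15 and 1.37 CPM per kb. Gata3 was below the erythroid factor Gata1, at 2.02, and above Gata2, at 0.875 CPM per kb. The heart and gut factors Gata4, Gata5 and Gata6 were at 0.0242, 0.0491 and 0.250 CPM per kb.

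**Figure D1:**
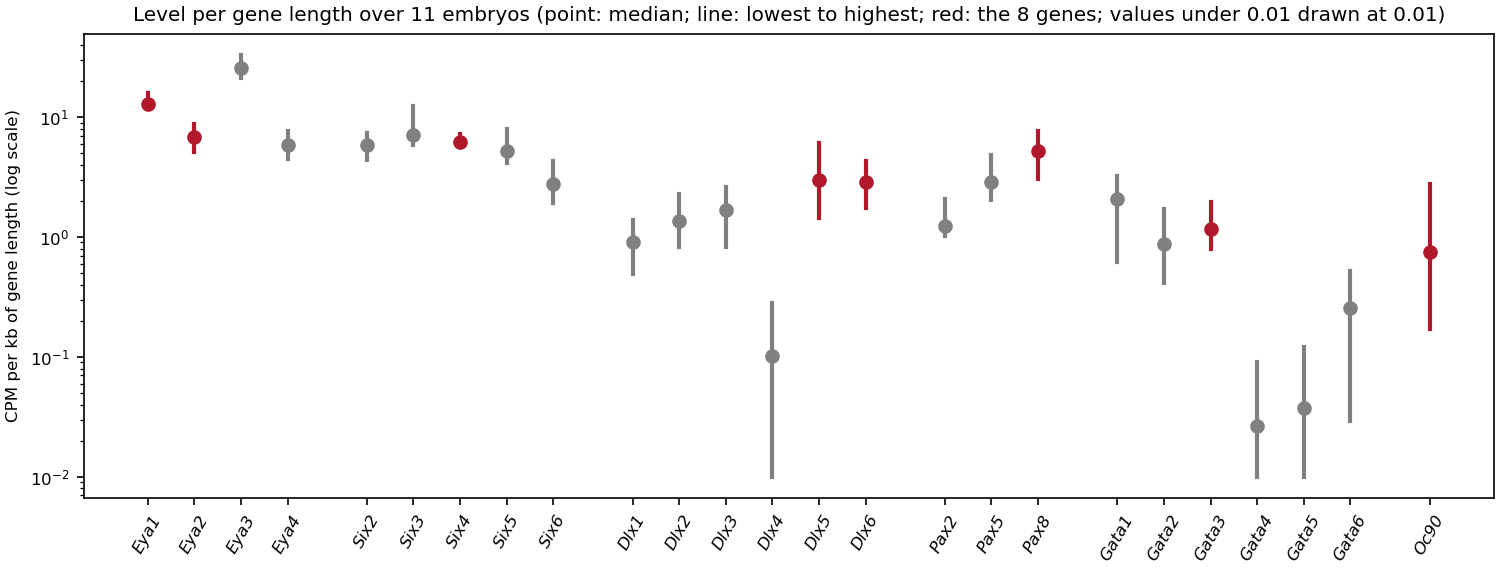
Level per kilobase of gene length, on a log scale, for the 8 genes (red) and their paralogues (grey), with the median over 11 embryos as a point and the lowest to highest embryo as a line. Eya1 is highest among the 8 but lies under Eya3, while Dlx5, Dlx6 and Pax8 lead their families.

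Oc90 was the most variable of the 8 across embryos, with a coefficient of variation of 80.9%, against 43.5% for Dlx5, 31.0% for Pax8, 28.9% for Dlx6, 28.5% for Gata3, 9.35% for Eya1 and 8.13% for Six4, with Eya2 between Gata3 and Eya1. Part of the spread of a low gene is counting error: Oc90 had 3 to 52 counts per library, Six4 had 312 to 419. Of the 8 genes, 3 changed between affected and control females (2 higher, 1 lower), where 28.0% of all genes tested were called (13.0% higher, 15.0% lower). Against control males the same count, 2 higher and 1 lower, stood beside 20.2% (9.51% higher, 10.7% lower). Between control males and control females edgeR called 0 of the 8, with 0 at an unadjusted p under 0.05, DESeq2 called 0 and limma voom with sample weights called 1, beside 0.144% of all genes in edgeR. With so many genes called in all, 3 of 8 does not set these genes apart as a group. The median log2 fold change of the 8 was 0.26 against control females and 0.27 against control males, where the median of all genes tested was under 0.02 in size. The comparisons of affected females share those 4 embryos, so the values are given side by side and not as repeats of each other.

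**Figure D2:**
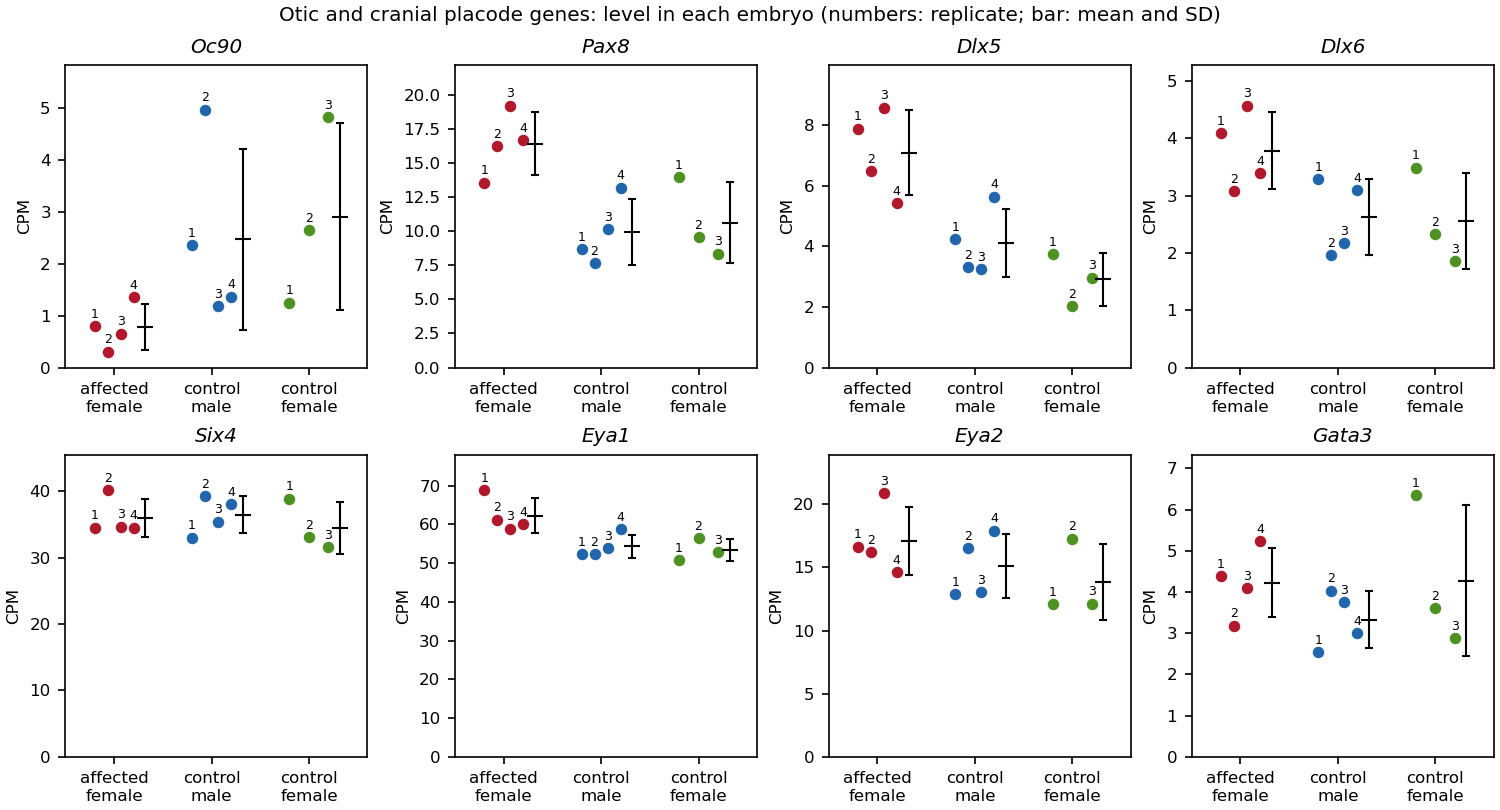
CPM of the 8 genes in each embryo (points, numbered by replicate), with the mean and SD of each group beside them, for affected females (n = 4), control males (n = 4) and control females (n = 3). The mean of affected females is the lowest of the 3 for Oc90 and the highest for Pax8 and Dlx5, and all groups overlap for Six4, Dlx6, Eya2 and Gata3.

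Oc90 encodes otoconin 90, a matrix protein secreted by the otic epithelium, and lies on chromosome 15 at 65876050 to 65912411 (GRCm38, as for all positions here). Affected females 1 to 4 were at 0.798, 0.308, 0.653 and 1.36 CPM. Control males 1 to 4 were at 2.35, 4.96, 1.18 and 1.36 CPM. Control females 1 to 3 were at 1.25, 2.65 and 4.82 CPM. The lowest 3 affected females lay under every control, and affected female 4 lay among the low controls, so the groups overlapped. Oc90 was 3.77-fold lower in affected than in control females, and the fitted difference was -1.92 in log2 units (SE 0.56, adjusted p = 0.0227). Against control males the log2 fold change was -1.62 (SE 0.54, adjusted p = 0.0466). Both calls rest on few reads: the exact 95% Poisson interval, which covers counting error only, was 0.0636 to 0.901 CPM in affected female 2, with 3 counts, and 3.60 to 6.32 CPM in control female 3, with 52. Leaving out 1 embryo ended the call against control females for affected female 2 (adjusted p = 0.0536), affected female 3 (0.0636), control female 2 (0.0515) and control female 3 (0.157), with log2 fold changes of -1.66, -1.84, -1.99 and -1.33. Against control males it ended without any single affected female (adjusted p = 0.0826, 0.104, 0.123 and 0.0548 for 1 to 4), control male 1 (0.1001) or 2 (0.178), or control female 2 (0.0577). With limma voom the log2 fold change against control males was -0.97 and did not pass (adjusted p = 0.0783). Without control female 1 and control male 4 the calls held, with adjusted p-values of 0.00243 and 0.00641.

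Pax8 encodes a paired-box transcription factor, among the earliest genes of the otic placode, and lies on chromosome 2 at 24420551 to 24475599. Affected females were at 13.6, 16.2, 19.2 and 16.7 CPM, and control males at 8.65, 7.65, 10.2 and 13.2 CPM. Control females were at 13.96, 9.54 and 8.34 CPM. Every affected female lay above every control male, as was so for 10.1% of all genes tested, but control female 1 reached above affected female 1. Pax8 rose 1.65-fold against control males, or by 0.72 in log2 units (SE 0.19, adjusted p = 0.0190), and 1.56-fold against control females, by 0.64 (SE 0.20, adjusted p = 0.0301). Against control males the call ended without affected female 3 (adjusted p = 0.0751), control male 1 (0.0689) or control male 2 (0.0563). Against control females it ended without affected female 3 (0.09995), affected female 4 (0.0642), control female 2 (0.110) or control female 3 (0.142). Without control female 1 and control male 4, the log2 fold changes were 0.88 against control females (adjusted p = 0.000880) and 0.90 against control males (0.000244).

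Pax2 and Pax5, the other members of this Pax subfamily, are also markers of the boundary of midbrain and hindbrain. Pax2 rose against control males, from a mean of 3.26 to 5.37 CPM (0.72 in log2 units, SE 0.18, adjusted p = 0.0176), and against control females its log2 fold change was 0.51 (adjusted p = 0.0594). The log2 fold changes of Pax5 were 0.49 (adjusted p = 0.196) and 0.30 (0.398). A list of 9 boundary genes, chosen with earlier results of these data known, includes Pax2 and Pax5. Of these 9, 1 rose and 1 fell against control females, and 1 rose and 3 fell against control males. Of all genes tested, 13.0% rose and 15.0% fell against control females, and 9.51% rose and 10.7% fell against control males. Cnpy1, a regulator of FGF signalling at that boundary, fell from 31.4 to 7.19 CPM against control females (log2 fold change -2.13, adjusted p = 0.00203). The part that either source of Pax8 RNA, otic or neural, had in its difference was not tested.

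Gata3, a zinc-finger factor of the otic vesicle and of hindbrain neurons, lies on chromosome 2 at 9857078 to 9887953. It was at 4.39, 3.19, 4.10 and 5.23 CPM in affected females, 2.54, 4.03, 3.75 and 3.00 CPM in control males, and 6.36, 3.60 and 2.87 CPM in control females. The groups overlapped, and the highest embryo was control female 1. No difference passed the test: the log2 fold change was 0.01 against control females (SE 0.27, adjusted p = 0.982) and 0.35 against control males (SE 0.26, adjusted p = 0.328). The direction against control females turned in 5 of the 11 fits that left out 1 embryo (the lowest value was -0.22, without control female 3), and the value was 0.40 without control female 1 and control male 4. Its relative Gata2 did not pass the test either (log2 fold change -0.78, adjusted p = 0.0882, and -0.47, adjusted p = 0.284). Of 7 genes of a list of hindbrain interneurons, 3 passed the filter. Of these, edgeR called 0 in both comparisons, where 28.0% and 20.2% of all genes tested were called. At an unadjusted p under 0.05 there were 1 and 0. DESeq2 called 0 in both, and limma voom called 1 lower against control females. The span of Gata3 overlaps the non-coding genes 4930412O13Rik, which had 9 to 52 counts, and 9230102O04Rik, with 0 to 4, and whether reads were counted by strand is not known here.

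Dlx5, a homeobox factor of the otic vesicle, the olfactory placode and the arches, lies on chromosome 6 at 6877801 to 6882068. Affected females were at 7.88, 6.47, 8.58 and 5.43 CPM. Control males were at 4.23, 3.31, 3.26 and 5.63 CPM, and control females at 3.74, 2.01 and 2.97 CPM. All 4 affected females exceeded all 3 control females, as was so for 20.2% of all genes tested. Control male 4 lay just above the lowest affected female. Dlx5 rose 2.45-fold against control females, or by 1.30 in log2 units (SE 0.26, adjusted p = 0.00462). The rise against control males was 1.72-fold, or 0.78 (SE 0.22, adjusted p = 0.0270). The call against control females held in 20 of 20 alternative fits, with log2 fold changes from 1.09 to 1.54. Against control males it ended without affected female 1 (adjusted p = 0.0614) or 3 (0.0989), or control male 1 (0.0754), 2 (0.0749) or 3 (0.0766).

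Dlx6, transcribed next to Dlx5 and under shared enhancers with it, lies at 6863334 to 6867970 of the same chromosome. Affected females were at 4.09, 3.08, 4.57 and 3.39 CPM, control males at 3.29, 1.96, 2.17 and 3.09 CPM, and control females at 3.49, 2.33 and 1.85 CPM. Its embryos overlapped between all groups, and control female 1 and control males 1 and 4 were the controls that reached the affected females. The log2 fold changes were 0.59 against control females (SE 0.27, adjusted p = 0.109) and 0.52 against control males (SE 0.24, adjusted p = 0.131), neither past the threshold. Against control females it passed without control female 1 (0.86, adjusted p = 0.0355) and without both that embryo and control male 4 (0.87, adjusted p = 0.0247). With limma voom it passed in both comparisons, at 0.80 (adjusted p = 0.00577) and 0.70 (adjusted p = 0.00731). All of Dlx6 lies within the span of the non-coding gene Dlx6os1 (6820543 to 6871627), which had 24 to 64 counts per library. Dlx6os1 was not called (log2 fold change 0.28, adjusted p = 0.560, against control females). The overlap is one of whole spans, of which 1071 bases of Dlx6 and 4247 bases of Dlx6os1 were counted. Whether the counted bases overlap, and whether reads were counted by strand, is not known here.

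The ratio of Dlx5 to Dlx6, each per kilobase, was 1.47, 1.60, 1.43 and 1.22 in affected females. It was 0.979, 1.28, 1.14 and 1.39 in control males and 0.816, 0.658 and 1.22 in control females. Affected female 4 lay within the control range, and the other 3 lay above it. These ratios come from 19 to 92 counts per gene and are a description without a test.

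**Figure D3:**
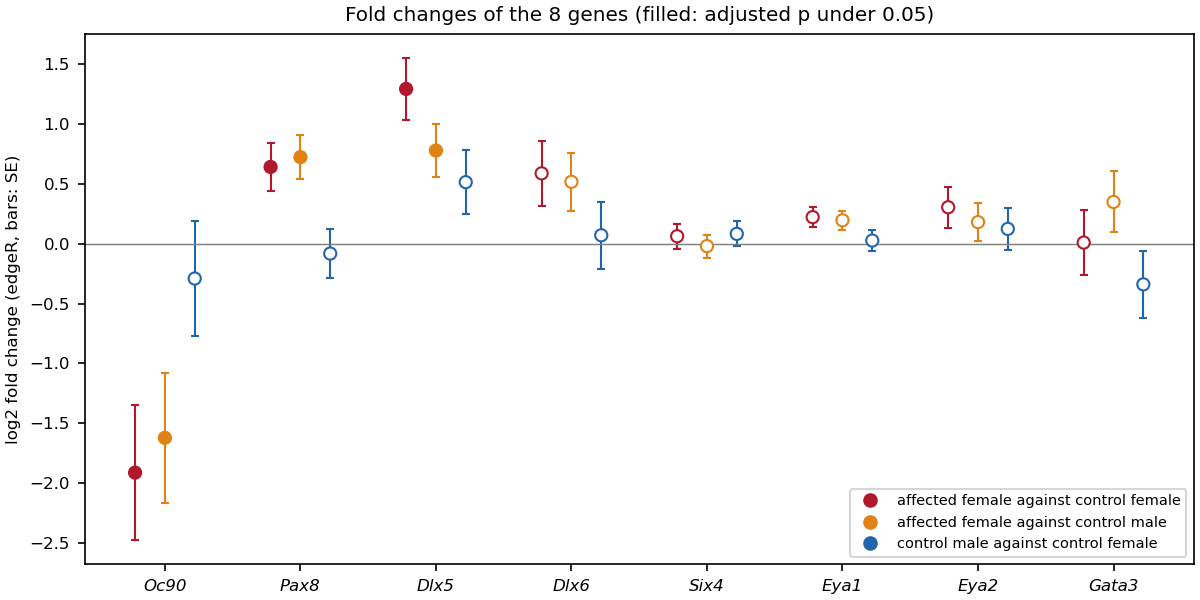
Log2 fold change of each gene in the 3 comparisons, with the SE as a bar; filled points had an adjusted p under 0.05 in edgeR. Oc90 lies at -1.92 and -1.62 and Dlx5 at 1.30 and 0.78 in the comparisons of affected females, and no point is filled for control males against control females.

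Eya1, whose loss causes ear, kidney and branchial arch defects, lies on chromosome 1 at 14168953 to 14311035. Affected females were at 68.8, 61.2, 58.9 and 60.1 CPM, control males at 52.3, 52.3, 53.95 and 58.7 CPM, and control females at 50.7, 56.4 and 52.8 CPM. Every affected female lay above every control, by a small margin at the closest pair. Groups that do not overlap in this way were common, however: 40.2% of all genes tested against control females (20.2% higher) and 19.5% against control males (10.1% higher). The log2 fold changes of 0.22 (SE 0.09, adjusted p = 0.0643) and 0.20 (SE 0.08, adjusted p = 0.0861) did not pass the threshold. Without control male 4 both did, with adjusted p-values of 0.0465 and 0.0349.

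Eya2, the second coactivator, lies on chromosome 2 at 165595028 to 165771727. It was at 16.6, 16.2, 20.9 and 14.6 CPM in affected females, 12.9, 16.5, 13.0 and 17.9 CPM in control males, and 12.1, 17.3 and 12.1 CPM in control females. The groups overlapped, with control male 4 and control female 2 above 3 of the affected females. Neither difference passed the test, with log2 fold changes of 0.31 (SE 0.17, adjusted p = 0.188) and 0.18 (SE 0.16, adjusted p = 0.417).

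Six4, which binds DNA and recruits Eya proteins, lies on chromosome 12 at 73099609 to 73114031. Affected females were at 34.5, 40.2, 34.7 and 34.5 CPM, control males at 33.0, 39.3, 35.4 and 38.1 CPM, and control females at 38.9, 33.1 and 31.5 CPM. The 3 groups covered almost the same range. The log2 fold changes were 0.06 (SE 0.10, adjusted p = 0.671) and -0.02 (SE 0.10, adjusted p = 0.901), and the sign of the latter turned under limma voom, without control female 1 and control male 4 together, and in 3 fits without 1 embryo. Six4 overlaps the gene Mnat1, which had 390 to 627 counts, by 1847 bases.

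Among the paralogues of these genes, 15 of 18 passed the low-count filter. Of these, 4 rose and 0 fell against control females, where 13.0% of all genes tested rose. Against control males 5 rose and 1 fell, where 9.51% of all genes rose and 10.7% fell. The optic and forebrain factors Six3 and Six6 rose in both comparisons, Six6 from 8.79 to 14.6 CPM against control females (log2 fold change 0.73, adjusted p = 0.00646). Eya3 rose from 120 to 155 CPM (log2 fold change 0.37, adjusted p = 0.0181), and by 0.30 against control males (adjusted p = 0.0381). Eya4 was the paralogue that fell against control males (log2 fold change -0.35, adjusted p = 0.0471). Counts of rises fell to 2, 1 and 1 against control females without affected female 3, control female 2 or control female 3. Against control males they fell to 0 without affected female 3 or 4, to 2 without affected female 2, and to 1 without control male 1, 2 or 3.

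**Figure D4:**
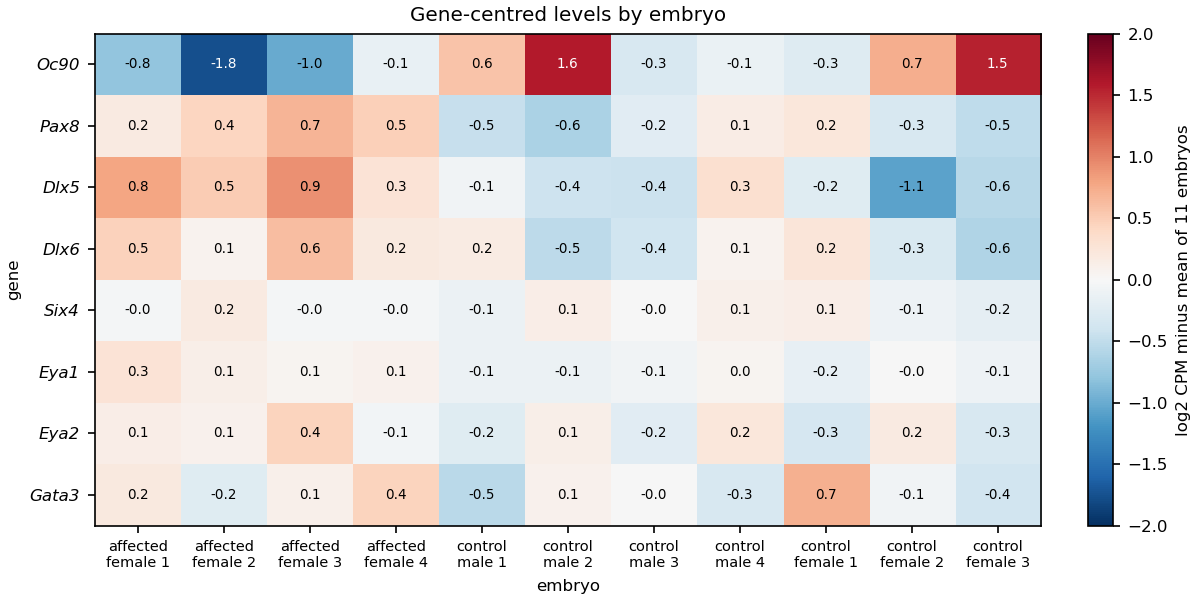
Log2 CPM of each of the 8 genes in each of the 11 embryos minus the mean of that gene over all embryos (red above, blue below). Oc90 runs opposite to Pax8 and Dlx5 between affected females and most controls, while Six4 and Eya1 stay within about 0.3 of their means.

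Within a group the 8 genes did not rank the embryos alike. Affected female 3 was the highest of its group for 4 of the 8, control female 1 for 5 and control male 4 for 4. Control female 1, which was high for Pax8, Dlx5, Dlx6, Six4 and Gata3, was the lowest control female for Oc90, Eya1 and Eya2.

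The markers of the tissues that share these genes were then compared as lists, without a test of any list. All of these lists were chosen with earlier results of these data known, so their counts are a description and not independent support. Some genes stand in several lists, such as Dlx3 and Pax2. Genes of the preplacodal region (Eya3, Eya4, Foxi3, Dlx3, Tfap2a, Tfap2c, Gata2 and Irx1 among them) overlap in part with the paralogues, and 8 of 9 passed the filter. Against control females 3 of them rose and 0 fell, where 13.0% of all genes tested rose. Against control males 2 rose and 1 fell, where 9.51% of all genes rose and 10.7% fell. Dlx3, a homeobox factor of the non-neural ectoderm, rose from 3.22 to 6.13 CPM against control females (log2 fold change 0.96, adjusted p = 0.0179) and from 3.62 CPM against control males (0.75, adjusted p = 0.0369). The median log2 fold change of the list was 0.38 and 0.23, beside -0.00 and -0.02 for all genes tested. No member of the list was called higher against control females without control female 2 or 3, and 5 were without control female 1. Against control males the count of rises was 4 without control female 1, 1 without affected female 1, control male 2 or control female 2, and 0 without affected female 2, 3 or 4 or control male 1 or 3.

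The 8 tested genes of the otic vesicle list were mixed in direction. Against control females 1 rose (Sox9) and 1 fell (Jag1), where 28.0% of all genes tested were called. Against control males 2 rose (Pax2 among them) and 0 fell, where 20.2% of all genes were called. Jag1, a Notch ligand, went from 148 to 101 CPM (log2 fold change -0.54, adjusted p = 0.0128). Otog, which like Oc90 encodes an extracellular protein made by the inner ear, had a mean of 0.754 CPM in affected females against 1.29 in control males and 1.45 in control females, with no overlap between affected females and either control group (log2 fold changes -0.93, adjusted p = 0.0551, and -0.75, adjusted p = 0.105); 40.2% and 19.5% of all genes tested did not overlap in these comparisons. By group, summed levels of the list ranged from 230 to 250 CPM in affected females, 231 to 280 in control males and 241 to 296 in control females.

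Genes of cranial sensory neurons, the progeny of the placodes, were tested in 8 cases. Against control females 3 fell and 1 rose, where 15.0% of all genes tested fell, and against control males 6 fell and 1 rose, where 10.7% fell. Isl1, a factor of sensory and motor neurons, fell from 18.2 to 7.60 CPM against control females (-1.27 in log2 units, SE 0.24, adjusted p = 0.00400) and from 18.6 CPM against control males (-1.29, SE 0.23, adjusted p = 0.00755). Neurod1 and Pou4f1 fell in both comparisons as well, 3.02-fold and 2.11-fold against control females (adjusted p = 0.0224 and 0.0108). Foxi2, a forkhead factor of the cranial ectoderm, was the member that rose, from 7.46 to 18.7 CPM (log2 fold change 1.33, adjusted p = 0.00477). The summed level was 46.5 to 66.6 CPM in affected females and 82.2 to 108 in control males, and it was 102 and 90.5 in control females 2 and 3 but 49.8 in control female 1. Without control female 1 the count of falls against control females was 6, and without control female 2 it was 1. Against control males it was 1 without affected female 3, and 3 without affected female 2 or 4 or control male 1.

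Of 15 surface ectoderm markers, all tested, 11 rose and 0 fell against control females, where 13.0% of all genes tested rose, and 9 rose and 0 fell against control males, where 9.51% rose. Grhl2 and Grhl3, grainyhead factors of the surface ectoderm, rose from 16.4 to 28.8 CPM (log2 fold change 0.82, adjusted p = 0.00357) and from 3.03 to 7.71 CPM (1.37, adjusted p = 0.00477). The summed level was 337 to 385 CPM in affected females, 195 to 277 in control males, and 312, 199 and 179 in control females 1 to 3. Affected females lay above every control in this sum. Control female 1 was the highest control for this list and for Pax8, Dlx6 and also Gata3, which was called in neither comparison. For Dlx5 it lay below control males 1 and 4. The part of surface ectoderm in the differences of the placode genes was not tested. In bulk tissue, more cells of a type cannot be told apart from more RNA per cell. Without control female 1 and control male 4 the counts were 11 and 11. Against control females they dropped to 7 without affected female 1, 6 without affected female 3 and 4 without control female 2 or 3; against control males they dropped to 1 without affected female 3, 4 without control male 1 and 5 without affected female 4 or control male 2.

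**Figure D5:**
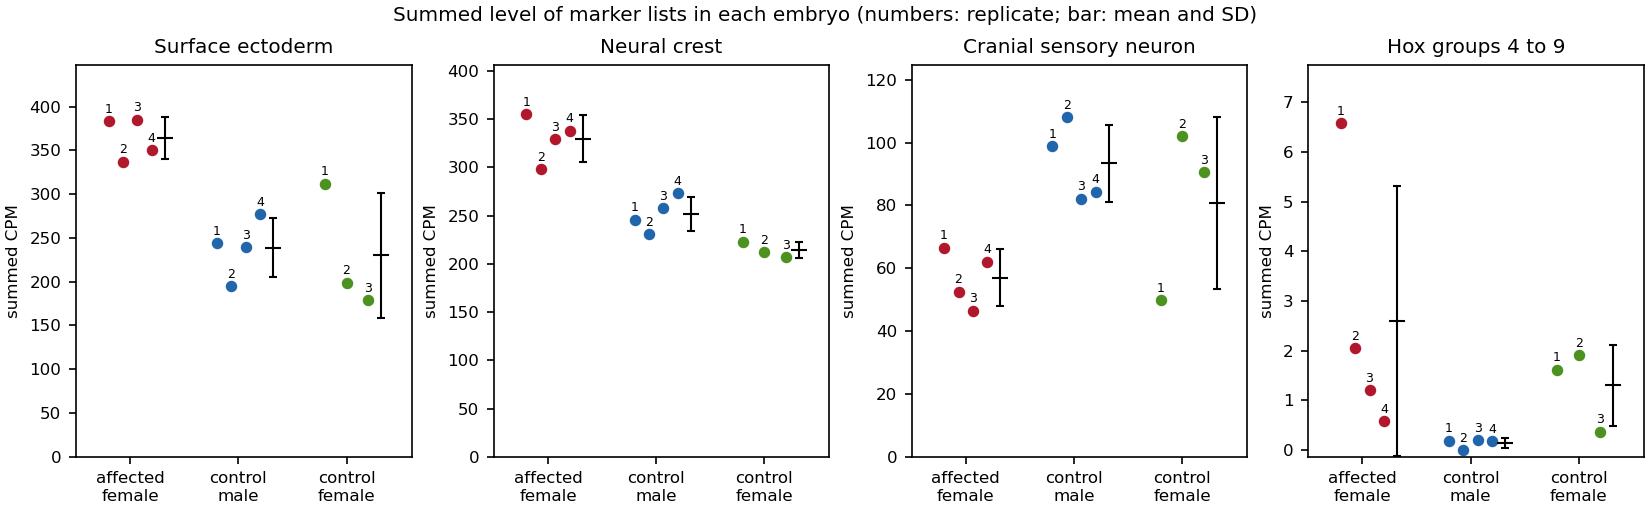
Summed CPM of marker lists in each embryo (points, numbered by replicate), with the mean and SD of each group; the panels show surface ectoderm, neural crest, cranial sensory neuron and trunk Hox genes. Surface ectoderm sums are 337 to 385 CPM in affected females against 179 to 312 in controls, and cranial sensory neuron sums are 46.5 to 66.6 CPM in affected females, 82.2 to 108 in control males and 49.8 to 102 in control females.

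Markers that bear on where the cut fell were low. Hox genes of paralogue groups 4 to 9, which mark tissue caudal to the otic vesicle, summed to 6.58, 2.05, 1.21 and 0.581 CPM in affected females 1 to 4, to at most 0.197 CPM in control males, and to 1.62, 1.91 and 0.371 CPM in control females. None of the 15 passed the filter, so they entered no test. Affected female 1 had the highest sum. Among the placode genes it was the highest affected female for Eya1, the lowest for Pax8 and in between for the others. Genes of the hindbrain at the level of the ear were detected in all embryos, with sums of 73.9 to 119 CPM. Of 8 tested, 2 rose and 1 fell against control females, where 28.0% of all genes tested were called. Against control males 1 rose and 0 fell, where 20.2% of all genes were called. Egr2, which marks rhombomeres near the ear, rose from 2.54 to 8.70 CPM against control females (log2 fold change 1.78, adjusted p = 0.00350) and Hoxb3, expressed from about the level of the ear backward, fell from 36.6 to 17.7 CPM (-1.06, adjusted p = 0.00838). Against control males Egr2 rose by 0.92 (adjusted p = 0.0308), and Hoxb3 was at -0.61 and did not pass (adjusted p = 0.0692). Their part in the placode values was not tested.

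FGF ligands and targets, which act upstream of Pax8 in the otic placode, were mixed. Of 14 genes, 4 rose and 1 fell against control females, where 28.0% of all genes tested were called. Against control males 1 rose and 1 fell, where 20.2% of all genes were called. Etv5, an ETS factor induced by FGF signals, rose from 38.1 to 61.5 CPM against control females (log2 fold change 0.70, adjusted p = 0.00462), and the ligand gene Fgf15 fell from 65.1 to 41.1 CPM (-0.66, adjusted p = 0.00630). Fgf3, an inducer of the ear, was at 2.82 CPM in affected females against 0.987 in control females (log2 fold change 1.46, adjusted p = 0.0110) and 1.58 in control males (0.82, adjusted p = 0.0621). Without control female 2 the count of rises was 2.

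Dlx5 and Dlx6 are also markers of the pharyngeal arches, and 7 of 12 arch genes were tested. Against control females 3 rose and 0 fell, where 13.0% of all genes tested rose. Against control males 2 rose and 0 fell, where 9.51% of all genes rose. Edn1, the signal that induces Dlx5 and Dlx6 in the arches, rose from 3.31 to 9.32 CPM against control females (2.82-fold, adjusted p = 0.00386). Against control males it rose from 4.13 CPM (2.24-fold, adjusted p = 0.0107). Hand1 and Hand2, factors of the ventral arches, did not pass the filter. Without control female 3 the count of rises against control females was 1. Against control males it was 0 without affected female 3 and 1 without affected female 1, 2 or 4 or control male 1, 2 or 3. Neural crest genes rose in 5 of 6 tested against control females, where 13.0% of all genes tested rose. Against control males they rose in 2 of 6, where 9.51% of all genes rose, and there were 0 falls. Sox10 rose from 12.3 to 26.4 CPM against control females (log2 fold change 1.10, adjusted p = 0.00285). Sums of the neural crest list were 298 to 355 CPM in affected females, 231 to 273 in control males and 207 to 223 in control females. The count against control females was 2 without control female 2 or 3, and 3 without affected female 1, 2 or 4 or control male 3. Against control males it was 1 without affected female 3 or control male 2 and 4 without control male 4.

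The remaining lists were as follows. Beside them, 13.0% of all genes tested rose and 15.0% fell against control females, and 9.51% rose and 10.7% fell against control males. Of the lens, nasal and pituitary placode genes, 5 of 11 were tested and Sp8 rose in both comparisons (from 32.7 to 48.3 CPM against control females, log2 fold change 0.56, adjusted p = 0.00449). Foxe3, Cryaa and Pitx3, also on that list, had no count in any embryo. Of 5 tested genes of pharyngeal endoderm, Pax1 rose in both comparisons, from 0.330 and 0.427 to 1.32 CPM. Of 8 tested genes of head mesenchyme, a tissue that also expresses Six4 and the Eya genes, 2 rose against control females and 1 against control males, with Meox1 rising to 13.6 CPM (log2 fold change 2.05, adjusted p = 0.00818). Of 8 neural progenitor genes, 2 rose and 1 fell against control females and 0 rose and 1 fell against control males. Endothelium had 0 rises and 1 fall and 0 of either, and primitive erythroid genes had none in edgeR, with 1 and 0 of 6 at an unadjusted p under 0.05, 0 in DESeq2, and 3 and 1 lower in limma voom; their sum was 1020 to 2110 CPM in affected females, 1960 to 3410 in control males, 3900 and 4090 in control females 2 and 3 and 499 in control female 1.

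For each gene, the genes most like it were taken by the root mean square difference of log2 CPM over the 11 embryos, after each gene was centred on its own mean, among 13141 genes with enough reads. For Oc90 these were Dpep1 (0.27), Lrrn3 (0.29) and Fap (0.31), where the median over all genes was 1.00. For Dlx6 they were Arhgef16 (0.13), the epithelial adhesion gene Epcam (0.16) and Arid3b (0.18), with a median of 0.42. Epcam itself was at a mean of 45.7 CPM in affected females against 33.4 in control females (log2 fold change 0.46, adjusted p = 0.0266) and 35.9 in control males (0.35, adjusted p = 0.0637). For Dlx5 they were Cited1 (0.20), Aldoart2 (0.21) and Bmper (0.22), with a median of 0.61, where Aldoart2 is a retrocopy of an aldolase gene and may share reads with it. Dlx5 and Dlx6 were not among each other's 3. For Pax8 they were Ipo5, Polr1a and Dnmt3b, at 0.07 to 0.08 with a median of 0.46, and for Gata3 they were the matrix genes Fn1, Svep1 and Lama5, each at 0.17 with a median of 0.41. Six4 and Eya1 hardly varied, so many genes were alike to them: Atp7a, Klhl2 and Uggt1 for Six4 (0.07 to 0.08) and Ube3b, Fez2 and Traf4 for Eya1 (0.05 each). For Eya2 they were Ubash3b (0.12), Zfp668 (0.12) and Gm5643 (0.13). The embryos of a group share their group difference in this measure, so it is a description.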

How the data were processed

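The authors deposited raw counts per Entrez gene, with gene lengths, for 11 libraries. They were made with featureCounts on mm10, per the submitters' processing notes; for the aligner and strand setting, nothing is given in the sources used here. Symbols and positions came from RefSeq (GRCm38.p6), with 25275 of 27179 identifiers named. Counts went into edgeR 4.0.16 (R 4.3.3) with filterByExpr and TMM, in 1 fit of all 11 embryos, with the group as the factor and a threshold of 0.05; the procedure was tested on simulated data. Log2 CPM had a prior count of 2. Levels per kb divide CPM by the deposited gene length. The 8 genes and all 18 other lists were chosen with earlier results of these data known. Named genes are the 8, up to 3 per list with the smallest adjusted p, paralogues, and 3 genes per member by likeness with a mean log2 CPM of at least 1; other names were chosen after their values were seen. Alternatives were TMM from autosomal genes or RLE for scaling, 2 other filters, DESeq2 1.42.0, limma 3.58.1 voom with sample weights, 2-group fits, the replicate block, each embryo left out, and control female 1 and control male 4 left out. Per the labels, replicates are separate embryos; p-values measure the spread between them. Some genes of the lists are not reported by name here.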

Additional observations from a re-analysis of the deposited data

Results flagged for a closer look

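Among 16 groups of 4 embryos tested for a single embryo far from the others, 1 was marked, where chance marks about 1 in 20. Six4 in affected female 2 was at 40.2 CPM, while the other 3 affected females were at 34.5 to 34.7 CPM, so that the gap was 0.967 of the group's range. Control males 2 and 4 and control female 1 had values of Six4 close to it.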

How the results depend on the processing

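Each result was computed again under 20 alternatives. The rise of Dlx5 against control females kept its call in all 20; Oc90 and Pax8 kept theirs in 15 each. Against control males the calls of Oc90, Pax8 and Dlx5 held in 11, 17 and 15. No call turned direction.

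The genes called (4073 against control females, 2940 against control males, 21 between controls) became 7639, 6397 and 1569 with limma voom, 43 between controls with DESeq2, and 6014 against control males without control female 1 and control male 4. With limma voom 4 of the 8 genes were higher against control females, and 5 higher and 0 lower against control males; Oc90 was the 1 lower between controls (adjusted p = 0.0391). Leaving out 1 embryo gave 1663 to 4957, 361 to 5140 and 18 to 35 genes called. The lowest were without control female 3 and without affected female 3, and counts against control females were also more than 1.5 times lower without affected female 3 (1967) or 4 (2605) or control female 2 (1924). Of the 8, 1 to 3 were then higher and 0 to 1 lower against control females, and 0 to 3 and 0 to 1 against control males. Of 972 list counts outside single omissions, 100 moved over 1.5 times.

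Values that turned sign were small and passed no test, on the log2 scale. With limma voom they were 0.00787 for Six4 against control males and 0.106 for Pax8, -0.0182 for Eya1, -0.129 for Eya2 and 0.0342 for Gata3 between controls. Without control female 1 and control male 4 they were 0.00529 for Six4 against control males, and -0.0451 for Eya1, -0.0503 for Eya2 and 0.0890 for Gata3 between controls. Gata3 against control females was -0.00353 with the 2 groups alone and -0.0169 with the replicate block. Leaving out 1 embryo gave -0.22 to 0.39 for Gata3 against control females and -0.0763 to 0.0169 for Six4 against control males, and between controls -0.87 to 0.30 for Oc90, -0.25 to 0.16 for Pax8, -0.13 to 0.34 for Dlx6, -0.0131 to 0.0689 for Eya1 and -0.57 to 0.0402 for Gata3. The cause was not tested.

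Replicate numbers did not pair the embryos: over 10 same-numbered pairs the correlation of deviations from group means ran from -0.14 to 0.18, with 3 over 0.1. With the number as a replicate block, 1 of the 8 was higher and 0 lower against control females (Oc90, adjusted p = 0.0505, and Pax8, 0.0666), and 0 lower against control males (Oc90, 0.0566). At 3 to 52 counts per library, the depth limits Oc90 most.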
